A study of Mus musculus with 11 samples.

Results

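A set of 10 genes that govern the G1 phase of the cell cycle was examined in E10.5 mouse forelimb buds in which Gmnn was deleted from limb mesenchyme. They were the D cyclins Ccnd1, Ccnd2 and Ccnd3, their kinases Cdk4 and Cdk6, the Cdk inhibitors Cdkn1b and Cdkn2c, the retinoblastoma gene Rb1, and the transcription factor genes Myc and Mycn. Members were matched by gene name, which found all 10 among the 47517 gene names of the count table, and all 10 had enough reads to be tested with the other genes (15821 in all). Cdkn1b was lower and Ccnd1 was higher in mutants at the threshold used, and the other 8 did not pass it.

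D cyclins are made in response to growth signals and bind Cdk4 or Cdk6. The resulting kinases phosphorylate the Rb protein, which releases E2F factors and lets the cell enter S phase. Cdkn1b (p27) binds and restrains cyclin-Cdk complexes, and Cdkn2c (p18) binds the Cdk4 and Cdk6 kinases themselves. Myc and Mycn encode transcription factors that pair with Max and promote growth and division, and Mycn is known to be needed for growth of the limb bud mesenchyme. Geminin, the product of Gmnn, holds the replication licensing factor Cdt1 inactive after origins have fired.

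Mutants carried 2 floxed Gmnn alleles and Prx-Cre (Gmnn f/f; Prx-Cre). Controls were heterozygous for the floxed allele and also carried the transgene (Gmnn +/f; Prx-Cre), so both groups express Cre and the controls can lose 1 allele where it acts. Prx-Cre acts in limb mesenchyme, and the ectoderm, blood and vessels of the bud are outside its main domain. All embryos were on the C57BL/6 background. The libraries numbered 5 for controls and 6 for mutants, and the 4 litters each held both genotypes. Controls 1 and 2 and mutants 1 and 2 came from litter A, control 3 and mutant 6 from litter B, control 4 and mutant 5 from litter C, and control 5 and mutants 3 and 4 from litter D. The labels do not say how many buds went into a library, and p-values measure only the spread between these libraries.

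Depth was similar, with total counts between 14777833 and 19733288 for controls and between 14721181 and 17034741 for mutants. Gmnn itself was 139 to 239 CPM (read counts relative to the scaled library totals) in controls and 99.5 to 138 CPM in mutants, without overlap (log2 fold change -0.67, SE 0.10, adjusted p 0.0291, edgeR's quasi-likelihood test, litter as block, which gave every adjusted p below). With each library left out in turn, the call of Gmnn held in 3 of 11 fits. Its edgeR adjusted p rose to as much as 0.139 in the others, and these 11 fits called 0.00598 to 5.41% of all genes. With no litter block its edgeR adjusted p was 0.0501. The direction held in all of these fits. Which exons the allele deletes is not given in the sources used here. The forelimb gene Tbx5 lay between 64.8 and 123 CPM in all libraries, and the hindlimb genes Tbx4 and Pitx1 summed to 0.841 to 6.80 CPM. Of 41 marker genes in 8 lists of cell types, 39 were tested. By edgeR 0 of them passed the adjusted threshold (2.18% of all genes) and 9 had an unadjusted p under 0.05 (21.4% of all genes). By limma-voom 0 passed (2.77% of all genes), and by DESeq2 2 passed (7.55% of all genes), 1 of limb mesenchyme and 1 of muscle precursors. Of the 9, 5 were among the 7 limb mesenchyme markers, in both directions, with mean CPM in controls and mutants of 95.3 and 76.5 for Tbx5, 103 and 73.2 for Pdgfra, 54.2 and 65.7 for Twist1, 41.2 and 49.3 for Prrx2, and 14.6 and 18.8 for Hand2. These genes were named after their values were seen. Summed over a list, limb mesenchyme markers held 555 to 752 CPM in controls and 556 to 646 CPM in mutants. The ectoderm list held 126 to 264 and 144 to 243 CPM, the red cell list 13000 to 33400 and 16300 to 56100 CPM, and the macrophage list 6.66 to 23.5 and 9.87 to 31.3 CPM in the same order. Endothelial markers held 124 to 195 and 100 to 170 CPM, muscle precursor markers 50.1 to 79.1 and 48.6 to 87.9 CPM, and neural crest markers 7.89 to 14.4 and 5.95 to 11.2 CPM. Foxd3, Sox10, Adgre1, C1qa and Pitx1 had 0 reads in at least 1 library, and no listed marker was at 0 in all. The part of these cell types in the results below was not tested. In bulk tissue, fewer cells of a type and less RNA per cell cannot be told apart.

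The members spanned a wide range of levels. To compare genes, CPM were divided by the summed exon length of the gene in kilobases (RPKM). In controls, Cdk4 was the most abundant member at 668 ± 72.5 RPKM (SD, n = 5), followed by Ccnd2 at 97.9 ± 8.19 RPKM. A middle group held Mycn (33.4 ± 4.24), Myc (24.6 ± 9.33), Cdk6 (20.6 ± 4.22) and Ccnd1 (14.5 ± 1.02 RPKM). The ranges of neighbours within this group overlapped, so the order of neighbours is not fixed by these libraries. In controls Mycn (26.5 to 37.3 RPKM) lay above Cdk6 (13.5 to 23.9 RPKM) and Ccnd1 (13.1 to 15.8 RPKM) without overlap. Ccnd3 (8.50 ± 1.18 RPKM) and Cdkn1b (7.27 ± 2.71 RPKM) overlapped in controls. Rb1 stood at 0.468 ± 0.0802 RPKM and Cdkn2c at 0.160 ± 0.0837 RPKM. Cdk4 was above Ccnd2, and Ccnd2 above Mycn, in 11 of 11 libraries. The length used adds up all exons of every annotated transcript, as for the 13989 exon bases of Cdk6, so the RPKM of a gene is low where part of that length is not in its transcripts.

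Promoters were available in the RefSeq table (GRCm38.p6) for 6 of the 10 members. Of 32851 promoters of the same length (250 bases before to 50 after the start), 7.15% held CACGTG, the core E-box that Myc and Max bind, on either strand. Among the 8 promoters of the members, 3 held it, in Cdk4, Cdk6 and Cdkn2c, and Cdk4 held it at 4 places, at positions -172, -118, -98 and -11, where 0 is the start base and a position is that of the first letter. The 2 E2F-type words searched on both strands, TTTCCCGC and TTTGGCGC, were in 1.07% and 0.514% of all promoters. TTTGGCGC was found in the Mycn promoter, at positions -183 and -168, and TTTCCCGC in none of the 8. The promoters of Cdk4, as the most abundant member, of Mycn, and of Cdkn1b, as the member with the largest difference between genotypes, are shown 5′ to 3′ with the matched words in capitals. Cdk4 lies at chr10:127063285-127063584 on the plus strand, Mycn at chr12:12941787-12942086 on the minus strand, and Cdkn1b at chr6:134920151-134920450 on the plus strand.
Cdk4: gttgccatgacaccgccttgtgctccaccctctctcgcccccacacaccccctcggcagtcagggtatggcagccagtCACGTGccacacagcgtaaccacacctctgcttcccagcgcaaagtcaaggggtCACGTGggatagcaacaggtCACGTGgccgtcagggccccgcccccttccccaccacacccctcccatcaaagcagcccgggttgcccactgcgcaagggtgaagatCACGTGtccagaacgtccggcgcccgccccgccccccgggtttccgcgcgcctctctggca
Mycn: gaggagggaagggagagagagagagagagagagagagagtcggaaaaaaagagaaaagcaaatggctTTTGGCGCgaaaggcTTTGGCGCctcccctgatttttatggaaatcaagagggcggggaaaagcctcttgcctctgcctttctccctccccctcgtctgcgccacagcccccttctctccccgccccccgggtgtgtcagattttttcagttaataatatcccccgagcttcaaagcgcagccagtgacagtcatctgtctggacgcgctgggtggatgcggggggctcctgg
Cdkn1b: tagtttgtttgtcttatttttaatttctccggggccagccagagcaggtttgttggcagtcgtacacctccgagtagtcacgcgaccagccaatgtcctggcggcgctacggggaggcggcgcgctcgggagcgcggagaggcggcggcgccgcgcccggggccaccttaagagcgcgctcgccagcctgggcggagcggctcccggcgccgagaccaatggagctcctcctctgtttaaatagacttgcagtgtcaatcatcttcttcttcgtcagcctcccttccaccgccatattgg
None of the 3 words was in the Cdkn1b window, which therefore has no capitals. A match is a description of the letters and not a test of binding.

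Of the D cyclins, Ccnd1 was called higher in mutants and Ccnd2 and Ccnd3 were not called, and the differences between their fold changes were not tested. Ccnd1 (chromosome 7, 144929931 to 144939925, minus strand, mm10) was 61.9, 66.2, 71.8, 74.2 and 68.2 CPM in controls 1 to 5. It was 91.6, 98.7, 94.4, 70.7, 86.4 and 90.5 CPM in mutants 1 to 6. Thus 5 of the 6 mutants lay above every control, and mutant 4, of litter D, fell within the control range. Controls averaged 68.4 ± 4.80 CPM (SD, n = 5), and mutants 88.7 ± 9.74 CPM (SD, n = 6). Ccnd1 rose by 0.39 on the log2 scale (SE 0.09, edgeR adjusted p 0.0495), or 1.31-fold. It was higher in mutants in 4 of 4 litters, with log2 differences of 0.57 (A), 0.33 (B), 0.22 (C) and 0.26 (D). Of all genes tested, 0.702% were called higher. The call was close to the threshold. When each of the 11 libraries was left out in turn, it held only without control 5 (edgeR adjusted p 0.0417, 5.41% of all genes called). Control 5 is the only control of litter D, so that fit compared the genotypes only within litters A to C. The fits in which it was lost called 0.00598 to 1.78% of all genes, against 2.18% with all libraries. The log2 fold change of Ccnd1 stayed between 0.34 and 0.43. In the annotation release at hand (GENCODE M21), 23.4% of the exon bases of Ccnd1 also lie in a gene on the opposite strand, LTO1, and counting did not use strand.

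Ccnd2, the main D cyclin of these buds, was 894, 911, 1020, 958 and 817 CPM in controls 1 to 5 and 838 to 1010 CPM in mutants, with a median of 983 CPM. The groups covered nearly the same range, and the lowest library of all was control 5. The log2 fold change was 0.06 (SE 0.07, 95% interval -0.08 to 0.21, edgeR adjusted p 0.636). Ccnd3 was 81.9, 80.7, 61.1, 65.7 and 83.5 CPM in controls and 61.2 to 84.5 CPM in mutants, with a median of 81.1 CPM. The groups overlapped almost fully, and control 3 and mutant 6, both of litter B, were each the lowest library of their genotype. The log2 fold change of Ccnd3 was 0.06 (SE 0.07, 95% interval -0.10 to 0.21, edgeR adjusted p 0.720), and its direction turned (-0.01) without control 4, mutant 5 or litter C.

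**Figure D1:**
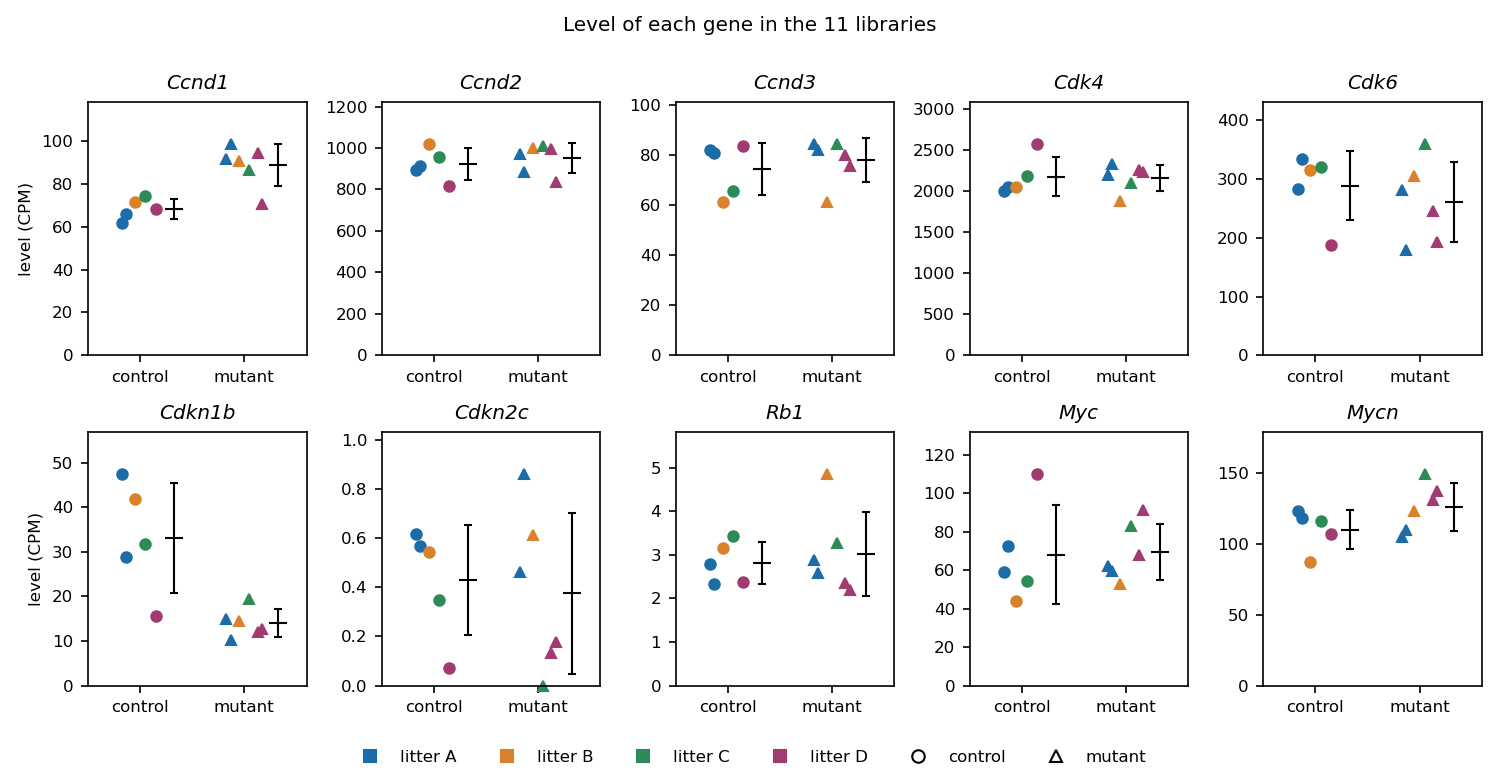
Level of each of the 10 genes (y axis, CPM, starting at 0) in control and mutant libraries (x axis); each point is 1 library, coloured by litter, and the bar at the side of each group gives the mean and SD (n = 5 controls, n = 6 mutants). Ccnd1 was 61.9 to 74.2 CPM in controls against 70.7 to 98.7 CPM in mutants; Cdkn1b in control 5 (15.6 CPM) lay among the mutants (10.3 to 19.5 CPM).

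Per length, the 3 D cyclins kept the order Ccnd2, Ccnd1, Ccnd3 in 11 of 11 libraries. The order of Ccnd1 and Ccnd3 rests on the lengths used, 4709 and 8775 exon bases. In CPM, Ccnd3 was above Ccnd1 in the control mean (74.6 against 68.4). Per length, Ccnd2 made up 80.9% ± 1.69 (SD, n = 5) of the summed D cyclin RPKM in controls and 78.4% ± 1.62 (SD, n = 6) in mutants. The share of Ccnd1 was 11.2, 11.7, 11.6, 12.6 and 13.1% in controls 1 to 5 and 14.7, 16.9, 14.9, 13.3, 13.5 and 14.5% in mutants 1 to 6. The shares of Ccnd1 did not overlap between the genotypes, with a gap from 13.1 to 13.3%, while its CPM values did overlap. Groups of CPM values did not overlap for 2.59% of all genes, and no such rate was taken for shares. The share of Ccnd3 was 7.10% ± 1.39 (SD, n = 5) in controls and 6.93% ± 0.889 (SD, n = 6) in mutants. Since Ccnd1 itself had differed, its share is a description and was not tested.

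**Figure D2:**
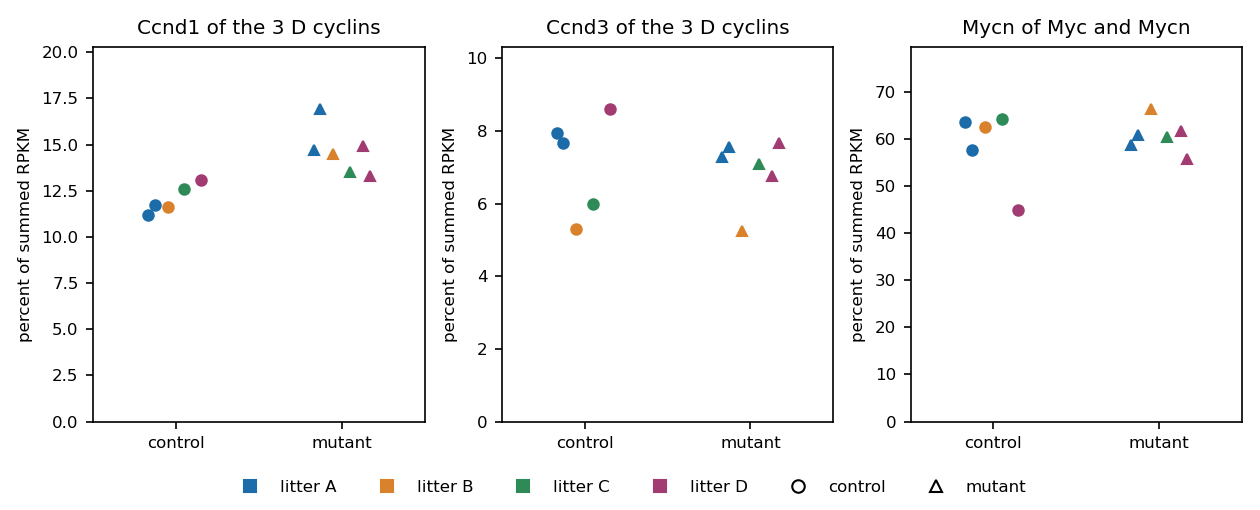
Share of Ccnd1 and of Ccnd3 in the summed RPKM of the 3 D cyclins, and share of Mycn in the sum of Myc and Mycn (y axes, percent, starting at 0), in control and mutant libraries; each point is 1 library, coloured by litter. The Ccnd1 share was 11.2 to 13.1% in controls against 13.3 to 16.9% in mutants; the Mycn share was lowest in control 5 (44.8%).

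The kinases of the D cyclins showed no called difference. Cdk4 (chromosome 10, 127063534 to 127067920, plus strand, mm10) was 2000, 2050, 2050, 2180 and 2570 CPM in controls 1 to 5 and 1880 to 2330 CPM in mutants, with a median of 2210 CPM. Control 5 was the highest library and mutant 6 the lowest. The log2 fold change of Cdk4 was -0.03 (SE 0.07, 95% interval -0.18 to 0.13, edgeR adjusted p 0.878), and it was 0.01 with upper-quartile scaling. In M21, 19.7% of the exon bases of Cdk4 also lie in Tspan31 on the opposite strand. Cdk6 was 284, 334, 316, 321 and 188 CPM in controls 1 to 5, and 281, 180, 246, 193, 360 and 306 CPM in mutants 1 to 6. Low levels occurred in both genotypes, in control 5 and in mutants 2, 3 and 4, and 3 of these 4 libraries are from litter D. The log2 fold change of Cdk6 was -0.08 (SE 0.14, 95% interval -0.38 to 0.21, edgeR adjusted p 0.775). Cdk4 held 96.9% ± 0.792 (SD, n = 5) of the summed RPKM of both kinases in controls and 97.2% ± 0.856 (SD, n = 6) in mutants.

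The largest difference among the members was in Cdkn1b (chromosome 6, 134920401 to 134925513, plus strand, mm10), the inhibitor p27. It was 47.4, 28.9, 41.9, 31.7 and 15.6 CPM in controls 1 to 5. In mutants 1 to 6 it was 14.9, 10.3, 12, 12.8, 19.5 and 14.5 CPM. Controls 1 to 4 lay above every mutant, and control 5 lay within the mutant range. Controls averaged 33.1 ± 12.3 CPM (SD, n = 5), and mutants 14 ± 3.16 CPM (SD, n = 6). Cdkn1b fell by 1.12 on the log2 scale (SE 0.21, edgeR adjusted p 0.0390), to 0.460 of the control level, and was lower in 4 of 4 litters. Of all genes tested, 1.48% were called lower. The log2 difference was -1.57 (A), -1.52 (B), -0.70 (C) and -0.33 (D). The genotype by litter interaction for Cdkn1b had an unadjusted p of 0.0422 and an adjusted p of 0.962 in edgeR. When each of the 11 libraries was left out in turn, the call held only without control 5 (-1.35, edgeR adjusted p 0.0179) and without mutant 2 (-0.98, edgeR adjusted p 0.0386). Those fits called 5.41% and 1.78% of all genes. The fit without control 5, the only control of litter D, compared the genotypes only within litters A to C. In the others the edgeR adjusted p rose to as much as 0.179, and 0.00598 to 0.0963% of all genes were called. Without litter as a block the log2 fold change of Cdkn1b was -1.24 with an edgeR adjusted p of 0.0501, and that of Ccnd1 was 0.38 with 0.0541. That fit called 0.11% of all genes.

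A property of the libraries moved with Cdkn1b. The Cdkn1b transcripts of M21 have a T run of 23 bases and those of Cdk6 one of 25, where Ccnd1 has 10, Ccnd2 and Mycn 15, and Myc 8. A T-run index was taken for each library as the mean log2 CPM of 957 other genes with a run of at least 18 T, minus the mean of the remaining genes tested. The index was 1.46, 1.33, 1.42, 1.43 and 1.13 in controls 1 to 5, and 1.11, 0.864, 1.06, 1.05, 1.30 and 1.15 in mutants 1 to 6. The 4 libraries of highest index, controls 1 to 4, were the 4 of highest Cdkn1b, mutant 5 was the next in both, and mutant 2 was the lowest in both. By litter, mutants minus controls, the index differed by -0.41, -0.27, -0.13 and -0.08 in litters A to D, which is the order of the Cdkn1b differences. Adjusted for the index, the log2 fold change of Cdkn1b was -0.26 (edgeR adjusted p 0.628) and that of Ccnd1 was 0.20 (edgeR adjusted p 0.586). That fit called only 2 genes (0.0126% of all genes). Cdk6 had 0.38 (edgeR adjusted p 0.377) in that fit, against -0.08 without the index. In that fit Gmnn passed, with -1.04 (edgeR adjusted p 0.00387), against -0.67 without the index. The index was lower in all 6 mutants than in controls 1 to 4, and that of control 5 lay among the mutants. Index and genotype thus largely went together, and the part of the index in these differences was not tested.

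**Figure D3:**
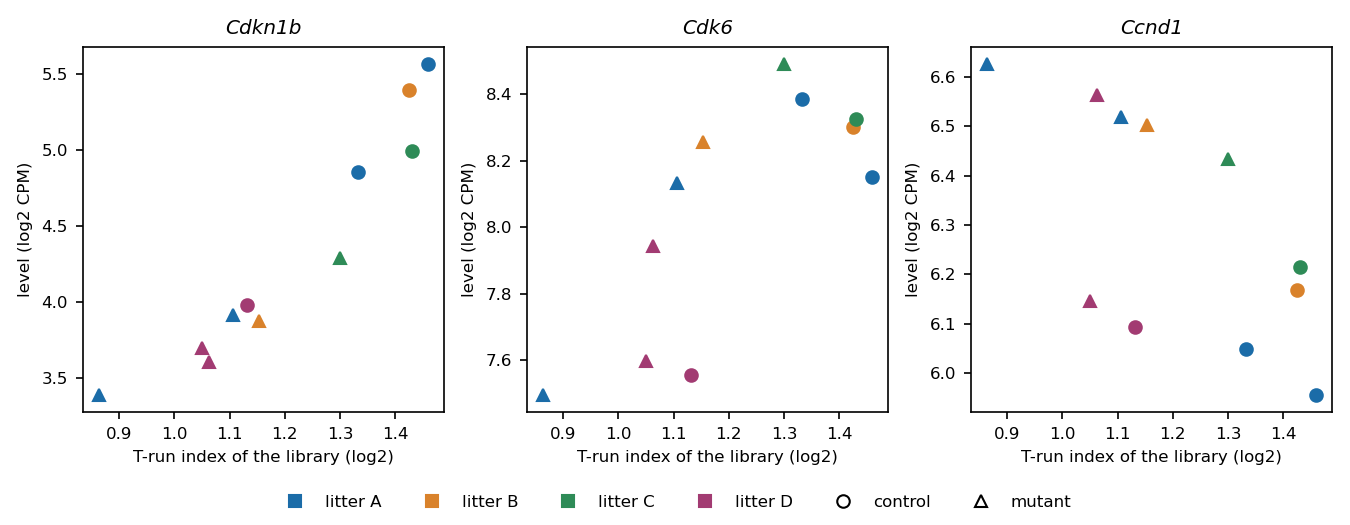
Level of Cdkn1b, Cdk6 and Ccnd1 (y axes, log2 CPM) against the T-run index of the library (x axis, log2 units); each point is 1 library, circles are controls and triangles mutants, coloured by litter. Control 5, with an index of 1.13, lies beside the mutants for Cdkn1b and low for Cdk6, and mutant 5, with an index of 1.30, lies nearest to controls 1 to 4 for Cdkn1b.

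The other inhibitor, Cdkn2c, was barely present. It had 11, 11, 10, 6 and 1 reads in controls 1 to 5 and 8, 13, 2, 3, 0 and 10 reads in mutants 1 to 6, or 75 in all. The 0 of mutant 5 allows up to 0.205 CPM (3 reads, counting error only), and 3 of the 4 libraries with fewer than 5 reads are from litter D. The log2 fold change was -0.11 with a 95% interval of -1.32 to 1.09 (SE 0.55, edgeR adjusted p 0.935), so that no difference was detectable at this depth. Rb1 was also low, with a mean of 2.82 ± 0.483 CPM (SD, n = 5) for controls and 3.02 ± 0.973 CPM (SD, n = 6) for mutants. Mutant 6 held the highest level, 4.85 CPM, and the other libraries lay between 2.20 and 3.43 CPM. The log2 fold change of Rb1 was 0.13 (SE 0.18, 95% interval -0.26 to 0.53, edgeR adjusted p 0.728), and 14.9% of its exon bases in M21 also lie in Lpar6 or Rcbtb2.

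Myc and Mycn were present together in every library. Myc (chromosome 15, 61985341 to 61990374, plus strand, mm10) was 58.9, 72.8, 44.0, 54.2 and 110 CPM in controls 1 to 5. It was 62.1, 59.7, 68.0, 91.4, 82.9 and 52.7 CPM in mutants 1 to 6. The highest level of Myc was in control 5 and the lowest in control 3, so that the mutants lay within the control range. The log2 fold change was -0.01 (SE 0.14, 95% interval -0.31 to 0.30, edgeR adjusted p 0.990). Within litters, mutants minus controls, Myc differed by -0.10, 0.26, 0.61 and -0.48 in litters A to D, with an interaction p of 0.0292 (adjusted p 0.962, edgeR). Without control 5 the log2 fold change of Myc was 0.16 (edgeR adjusted p 0.529).

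Mycn (chromosome 12, 12936096 to 12941914, minus strand, mm10) was 123, 118, 87.3, 116 and 107 CPM in controls 1 to 5 and 105, 110, 131, 137, 149 and 123 CPM in mutants 1 to 6. Mutants 3, 4 and 5 exceeded every control, and mutants 1 and 2, of litter A, lay below both controls of their litter. The log2 fold change of Mycn was 0.18 (SE 0.10, 95% interval -0.03 to 0.39, edgeR adjusted p 0.310). It was -0.16 in litter A and 0.49, 0.37 and 0.33 in litters B to D, with an interaction p of 0.0133 (adjusted p 0.962, edgeR). Per length, Mycn made up 58.5% ± 8.12 (SD, n = 5) of the sum of Myc and Mycn in controls and 60.5% ± 3.48 (SD, n = 6) in mutants. Control 5 was the only library with more Myc than Mycn RPKM, with a Mycn share of 44.8%, and the other 10 libraries lay between 55.7 and 66.2%.

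Over the 10 members, 1 was called higher and 1 lower, where 2.18% of all 15821 genes were called in either direction. In 14 of 24 alternative fits no member was called, and each of those fits called only 1 to 16 genes in all (at most 0.11% of genes tested). The 24 fits are not independent of each other. With litter as a block, leaving out the only library of a genotype in a litter takes that litter out of the genotype comparison. Controls 3, 4 and 5 and mutants 5 and 6 are such libraries. The median log2 fold change of the members was 0.03, beside 0.00 over all genes tested. Groups did not overlap for 0 of the 10 members, and for 2.59% of all genes. Ccnd1 and Cdkn1b were the 2 members with the same direction in all 4 litters, a pattern of 26.0% of all genes. The interaction of genotype and litter passed the adjusted threshold for 0 of the 10 members and 0.00% of the 16779 genes of that fit (edgeR). In it 3 members had an unadjusted p under 0.05 (3.87% of those genes). Only litter A and the mutants of litter D held more than 1 library of a genotype, so this fit had little power. Differences between litters passed for 0 of the 10 members (0.0885% of all genes), and 5 members, Myc, Ccnd3, Cdk6, Cdkn2c and Rb1, had an unadjusted p under 0.05 (13.5% of all genes, edgeR). For Myc, the litter means ran from 48.3 CPM in litter B to 89.9 CPM in litter D, and for Cdk6 from 209 CPM in litter D to 340 CPM in litter C.

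**Figure D4:**
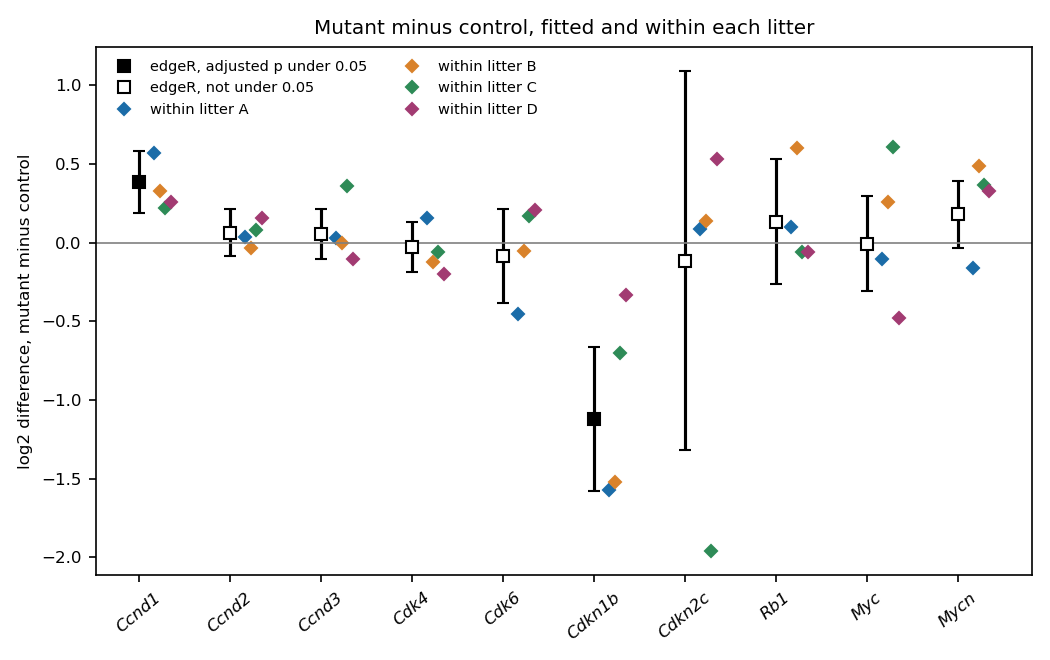
Log2 difference of mutant minus control (y axis) for the 10 genes (x axis); squares are the edgeR estimates with 95% intervals, filled where the adjusted p was under 0.05, and diamonds are the differences within litters A to D. Ccnd1 was above 0 and Cdkn1b below 0 in all 4 litters, and the diamonds of Myc and Mycn lay on both sides of 0.

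The genes around the members were taken from 7 lists of 74 genes, of which 72 were tested. Of these, 3 were called higher and 2 lower by edgeR (0.702% and 1.48% of all genes), and 23 had an unadjusted p under 0.05 (21.4% of all genes). In the list of E cyclins, Cdk2, E2F and Rb family genes, 1 of 15 rose, 1 fell and 13 did not pass by edgeR, where 2.18% of all genes were called. The list had a median log2 fold change of 0.00. In this list 9 of the 15 had an unadjusted p under 0.05 (21.4% of all genes), and DESeq2 and limma-voom each called 3 (7.55% and 2.77% of all genes). Both E cyclins, which activate Cdk2 at the entry into S phase, changed, in opposite directions. Ccne1 averaged 73.4 ± 16.4 CPM (SD, n = 5) in controls against 109 ± 6.76 CPM (SD, n = 6) in mutants, and rose by 0.56 on the log2 scale (SE 0.10, edgeR adjusted p 0.0353). Its level in control 5 was 102 CPM, the highest of the controls and just below the lowest mutant (104 CPM). Ccne2 averaged 70.6 ± 7.80 CPM (SD, n = 5) in controls against 50.1 ± 7.47 CPM (SD, n = 6) in mutants, and fell by 0.47 on the log2 scale (SE 0.08, edgeR adjusted p 0.0291). The groups overlapped for Ccne2, since control 5, the lowest control at 58.6 CPM, lay below the highest mutant (64.3 CPM).

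Among the other Cdk inhibitors, 1 of 4 tested rose (0.702% of all genes) and 3 did not pass (median 0.05). Cdkn1a (p21), a direct target of p53, averaged 17.2 ± 4.27 CPM (SD, n = 5) in controls against 45.3 ± 13.5 CPM (SD, n = 6) in mutants. It rose by 1.38 on the log2 scale (SE 0.21, edgeR adjusted p 0.0291), the opposite direction to Cdkn1b, its relative in the Cip/Kip family. Control 5 held the highest control level of Cdkn1a, 22.7 CPM, below the lowest mutant (30.3 CPM). The longest T run is 26 bases in Cdkn1a and 25 in Ccne1. Cdkn2a and Cdkn2b had too few reads to be tested. Of the 6 genes of Cdk activation, 1 rose and 1 fell (0.702% and 1.48% of all genes, median of the list 0.09). They were Cdc25a, a phosphatase that activates Cdk2 (0.31, SE 0.07, edgeR adjusted p 0.0475), and Cdc25c, which acts on Cdk1 at entry into mitosis (-0.31, SE 0.06, edgeR adjusted p 0.0406).

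By edgeR, 0 of the 10 turnover genes, 11 Myc partners, 16 Myc targets and 10 E2F targets passed the adjusted threshold (2.18% of all genes). In the same order, 3, 1, 3 and 4 of them had an unadjusted edgeR p under 0.05 (21.4% of all genes). By limma-voom 0 passed in all 4 lists (2.77% of all genes), and by DESeq2 2 Myc targets and 2 E2F targets did (7.55% of all genes). Their median log2 fold changes were -0.06, -0.04, 0.05 and 0.05. In the turnover list the smallest p belonged to Skp2, which marks p27 for degradation (-0.25, edgeR adjusted p 0.120), and Fbxw7, which marks cyclin E and Myc (0.21, edgeR adjusted p 0.131). Among the Myc partners they were Mlxip (0.26, edgeR adjusted p 0.104) and Mxd4, a repressor that competes for Max (-0.26, edgeR adjusted p 0.245). Among the Myc targets, the polyamine enzymes Srm and Odc1 had 0.47 and 0.38 (edgeR adjusted p 0.0694 and 0.0714). Among the E2F targets, cyclin A2 (Ccna2) had 0.27 and the ribonucleotide reductase subunit Rrm2 had -0.20 (edgeR adjusted p 0.0619 and 0.0782). Adjusted for the T-run index, the log2 fold changes were 0.40 for Ccne1, -0.26 for Ccne2, 0.71 for Cdkn1a, 0.21 for Cdc25a and -0.32 for Cdc25c. In that fit 0 of these 5 passed (edgeR adjusted p 0.278 to 0.453), where 0.0126% of all genes passed. With each library left out in turn, the 5 genes kept their direction throughout, and their calls held in only 1 to 3 of the 11 cases. These fits called 0.00598 to 5.41% of all genes.

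**Figure D5:**
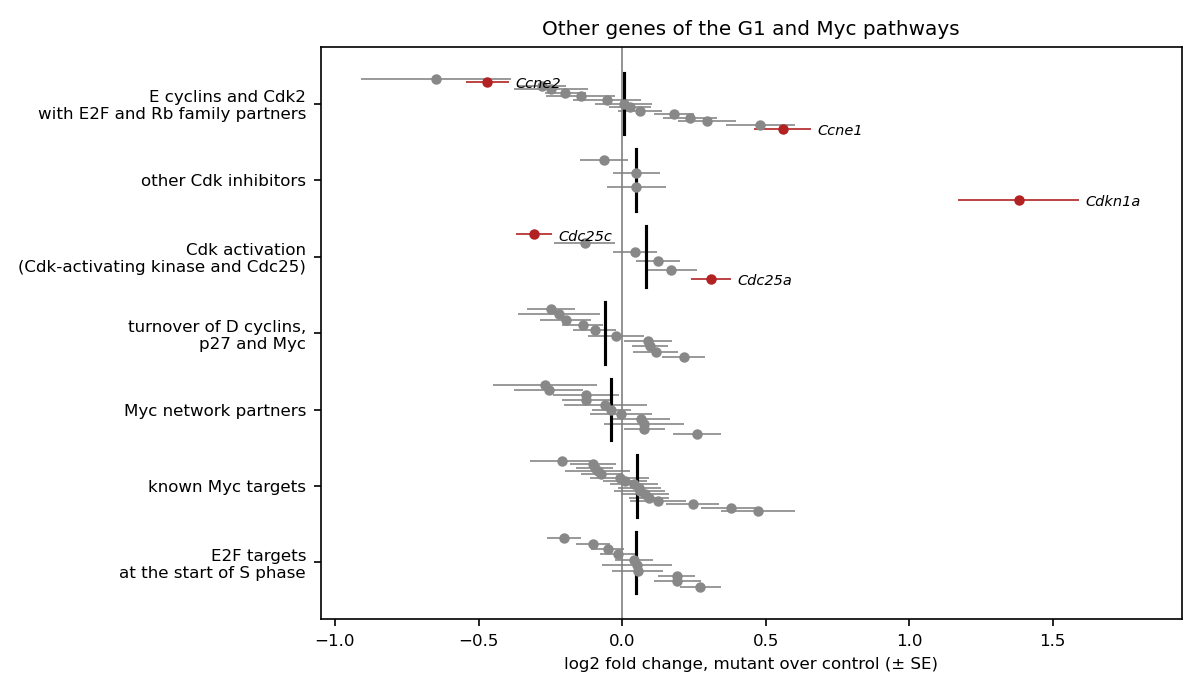
Log2 fold change of mutant over control (x axis, with SE) for the 72 tested genes of 7 lists (y axis); each point is 1 gene, red and named where the edgeR adjusted p was under 0.05, and the black bar is the median of the list. Points lie on both sides of 0 in every list, and the named genes are Ccne1, Ccne2, Cdkn1a, Cdc25a and Cdc25c.

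For each member, the gene most like it over the 11 libraries was sought by Pearson correlation of log2 CPM among 9619 other genes with a mean of at least 5 CPM. Predicted, clone-named, mitochondrial and date-like gene names were left out of these, and inverse correlations were not sought. The values are the highest of many, are given without a p, and share the libraries and their T-run index. For Cdkn1b they were Rpa1 (r = 0.989, Spearman 0.927, longest T run 5) and Ap2a2 (r = 0.988, Spearman 0.918, longest T run 18), beside r = 0.951 with the T-run index. For Ccnd1 they were Ddit4l (r = 0.957, Spearman 0.873), which rose in mutants by a log2 fold change of 1.06 (edgeR adjusted p 0.0353), and Fam117a (r = 0.955, Spearman 0.955). Cdk4 was closest to Apex1 (r = 0.959) and Bola1 (r = 0.946), and Myc to Rpl10a (r = 0.963) and Trmt1 (r = 0.951). Ccnd2 was closest to Mxi1 (r = 0.950) and Fam171b (r = 0.925), Ccnd3 to Adrm1 (r = 0.953) and Hsf1 (r = 0.932), and Mycn to Mfsd7b (r = 0.935) and Cers5 (r = 0.917). Cdk6 was closest to Lpp (r = 0.946) and Thoc2 (r = 0.923), and Cdkn2c to Abtb2 (r = 0.934) and Cdkn1c (r = 0.881). The values for Cdkn2c rest on 75 reads in all, near the floor, and do not show a link between genes. Dhx36 (r = 0.903) was among the genes closest to Rb1.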

How the data were processed

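RNA-seq counts of 5 control and 6 mutant forelimb bud libraries were used, grouped by their titles. The authors deposited unnormalized read counts for each gene, made with featureCounts on mm10 and GENCODE M9 at a mapping quality of at least 10 and with no strand option, per the file headers. The submitters' processing notes also name STAR 2.5.4b. Ribosomal RNA was removed from total RNA, per the labels' protocols. The series text speaks of 6 pairs, and 11 libraries were analysed here.

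Genotype was fitted with a litter block in edgeR 4.0.16 (R 4.3.3, limma 3.58.1), with filterByExpr (15821 genes kept), TMM scaling and the two-sided quasi-likelihood F test. P-values were adjusted by Benjamini-Hochberg across these genes at a threshold of 0.05. Log2 CPM had a prior count of 2, and the scripts were tested on simulated data. T runs and exon overlaps come from GENCODE M21 (mm10), promoters from RefSeq. Litters come from the titles. Deviations from group means correlated at -0.16 to 0.37 (median 0.13, across genes) in 8 control-mutant pairs that share a litter, against -0.33 to 0.17 (median -0.02) in 22 that do not. No libraries of a group were repeats (chi-square per df at least 6.82 in 25 pairs). Protein sequences were not used here.

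The members, lists and tests were chosen with earlier results of these data known. Named were the members, Gmnn, list genes past the threshold (otherwise the 2 of smallest p in a list) and the 2 genes most like each member, of which 1 is not reported here. Alternatives covered scaling (RLE, upper-quartile), filters (none, or 1 CPM in 5 or more libraries), the tool (limma-voom, DESeq2 1.42.0), no block, removal of abundant genes, the T-run index as a covariate, and each library or litter left out.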

Additional observations from a re-analysis of the deposited data

Results flagged for a closer look

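Each member and Gmnn was searched for a library far from the others of its genotype, in 22 groups, of which chance flags about 1 in 20. Ccnd3 in mutant 6 stood at 5.938 log2 CPM (61.2 CPM), below the other mutants (75.8 to 84.5 CPM). Control 3, of the same litter, was the lowest control at 61.1 CPM. Cdk6 in control 5 stood at 7.557 log2 CPM (188 CPM), where the other controls had 284 to 334 CPM and the mutants of the same litter, mutants 3 and 4, had 246 and 193 CPM.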

How the results depend on the processing

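Of the 24 alternatives, 8 called both Ccnd1 and Cdkn1b, 2 called Cdkn1b alone (without mutant 2, without litter D) and 14 called no member. Some of them nearly coincide. The log2 fold change of Cdkn1b was -1.017 without control 3, without mutant 6 and without litter B, and -1.352 without control 5 and without litter D. Leaving out 1 library gave 0 to 2 members called, 1 to 850 genes called in all (345 with all libraries) and 0 to 87 genes for the litter differences. The interaction was refitted only without control 1 or 2 or without mutant 1, 2, 3 or 4, and gave 0 to 2 genes. Each other library is the only one of its genotype in its litter. Without litter A, B, C or D there were 0, 0, 0 and 1 members among 9, 3, 1 and 148 genes. The fit with no replicate block gave 0 members and 16 genes, and the T-run index as a covariate gave 0 members and 2 genes. More genes passed without a filter on low counts (1566, with 438 for the interaction and 1583 between litters), with 1 CPM in at least 5 libraries (550) and with DESeq2 (1194). Upper-quartile scaling gave 360 genes, 43.1% of them higher against 32.2% with TMM, and 2 genes between litters in place of 14. Ccnd1 and Cdkn1b kept their direction in all 24 alternatives. Small differences turned: Ccnd3 was -0.012 without litter C and -0.014 to 0.108 over left-out libraries; Cdk4 was 0.012 with upper-quartile scaling, 0.035 without litter D and -0.068 to 0.034 over left-out libraries; Cdk6 was 0.38 with the T-run index, 0.12 without litter A and -0.181 to 0.045 over left-out libraries. Cdkn2c was 0.28 without litter C and -0.37 to 0.29 over left-out libraries. Myc was 0.031 with upper-quartile scaling, 0.034 with no block, 0.056 and 0.162 without litters A and D, and -0.14 to 0.16 over left-out libraries. Skp2 was 0.029 with the T-run index. The cause of these shifts was not tested. From counts in place of RPKM, shares in controls and mutants were 86.5 and 85.0% for Ccnd2, 6.44 and 7.94% for Ccnd1, 7.08 and 7.01% for Ccnd3, 88.1 and 89.2% for Cdk4 and, in mutants, 64.6% for Mycn, since lengths differ. By counts, Ccnd3 was thus above Ccnd1 in the control mean and below it in the mutant mean. Depth limits Cdkn2c and Rb1, with 75 and 534 reads in all.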
